A study of Homo sapiens with 6 samples.

Results

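The tetraspanins are a family of small membrane proteins, and 32 of its genes were measured here with 60 probe sets, out of 54613 probe sets on the array, in human embryonic kidney cells depleted of the TET enzymes. The genes were taken by symbol: every TSPAN gene with a number, and CD9, CD37, CD53, CD63, CD81, CD82, CD151, UPK1A, UPK1B, PRPH2 and ROM1. Of the 60 probe sets, 35 were bright enough to be tested and stood for 22 genes, while the other 25 were dim and are given as signals alone. TSPAN19 had no probe set carrying its symbol alone and was not analysed here. A gene is described at the probe set of highest mean log2 signal over all 6 arrays, called its brightest probe set.

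RNA was measured on 6 Affymetrix arrays of 1 colour. The cells were Flp-In T-REx 293, made from the HEK293 line by adding a fixed site for transgenes. On 3 arrays they had received siRNAs against TET1, TET2 and TET3 together, and on the other 3 non-targeting siRNAs, and both were harvested at 96 h. Each of clones 1, 2 and 3 gave 1 array per treatment, so the groups were compared within clones. All clones, the controls included, carried a stable GFP transgene with an inducible promoter that was left uninduced. The p-values of that comparison weigh the mean treatment difference against how far it varied between these clones of 1 cell line. That variation was not taken from each probe set alone but moderated with that of the other tested probe sets. Differences in level between the clones are taken out. Precision is limited by having 3 arrays in a group. In RNA from a whole culture, fewer cells with a transcript and less of it per cell cannot be told apart.

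A tetraspanin crosses the membrane several times and exposes a small and a large extracellular loop. The proteins assemble sideways with each other and with partners such as integrins, immunoglobulin-type proteins and the protease ADAM10, and so set where those partners travel and gather. Several of them are standard markers of extracellular vesicles, and a group called TspanC8, after the cysteines of the large loop, carries ADAM10 out of the endoplasmic reticulum.

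The knockdown was checked first. The brightest TET1 probe set had signals of 447.5, 621.3 and 685.2 in clones 1, 2 and 3 under TET siRNA, against 3073, 3123 and 3470 under non-targeting siRNA, which left 17.9% of the control level. TET2 had 416.7, 282.8 and 441.7 under TET siRNA, against 868.2, 714.5 and 820.3 under non-targeting siRNA, or 46.8% of control. TET3 had 505.2, 593.7 and 537.3 under TET siRNA, against 1451, 1240 and 1138 under non-targeting siRNA, or 42.9% of control. The groups did not overlap at any of these probe sets, and the limma adjusted p with the clone as a block, over all probe sets without a brightness filter, was 0.000194, 0.0335 and 0.0196 in that order. Without the block TET2 (0.327) and TET3 (0.1) missed the threshold of 0.05. Of 7 marker genes known from HEK293 cells that the array measured, 6 were bright enough to be tested. The summed signal of all 7 was 65562 to 76382 under TET siRNA and 74960 to 79186 under non-targeting siRNA. For leukocytes, urothelium and photoreceptors, the cells in which CD37, CD53, the uroplakins and PRPH2 are best known, 1 of 4, 0 of 4 and 1 of 3 markers passed the same filter. Summed over all markers of a cell type, dim ones included, the signals were 175.1 to 377.2, 48.11 to 178.6 and 116.9 to 200.9 under TET siRNA. Under non-targeting siRNA they were 218.9 to 287.4, 51.92 to 231.1 and 141.3 to 183.8, in that order of cell types. The leukocyte marker that passed was LAPTM5, at 94.63 to 177.6 under TET siRNA and 104.1 to 149.5 under non-targeting siRNA. The photoreceptor marker was NRL, at 98.86 to 170.5 under TET siRNA and 114.4 to 162.6 under non-targeting siRNA. The leukocyte marker PTPRC and the urothelial markers UPK2 and UPK3A were dim. Of 4 fibroblast markers 2 were bright enough to be tested. The summed signals of all 4 were 1090 to 1400 under TET siRNA and 1261 to 1533 under non-targeting siRNA.

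TSPAN2 was the only tested tetraspanin to pass the threshold in the fit with the clone as a block, and it did not pass without the block. Its level was 2.48-fold higher under TET siRNA (95% interval 1.97 to 3.12). TSPAN2 is known in rodents as an abundant tetraspanin of myelin-forming oligodendrocytes. At its brightest probe set the signal was 465.9, 1032 and 947.4 in clones 1, 2 and 3 under TET siRNA, against 216.5, 348.1 and 396.4 under non-targeting siRNA. Every TET siRNA array lay above every control array, with the lowest of the knockdown arrays and the lowest of the control arrays both from clone 1. The means were 815.1 ± 305 under TET siRNA and 320.3 ± 93.1 under non-targeting siRNA (SD, n = 3 each), and the change was 2.15-fold in clone 1, 2.96-fold in clone 2 and 2.39-fold in clone 3. In limma with the clone as a block, the log2 difference was 1.31 (SE 0.15) with an adjusted p of 0.00279 over all 27306 probe sets tested. Among 12318 tested genes this was the difference of rank 6 from the highest.

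The other TSPAN2 probe sets moved the same way by less. The second one had signals of 112.2, 217.1 and 240.7 under TET siRNA, against 77.17, 117.0 and 110.4 under non-targeting siRNA. Clone 1 under TET siRNA lay within the control range there, and the log2 difference of 0.85 (SE 0.29) did not pass (limma adjusted p = 0.207). The third was dim, with 78.42, 128.1 and 133.3 under TET siRNA and 57.69, 110.8 and 97.19 under non-targeting siRNA. All 3 probe sets were higher under TET siRNA in 3 of 3 clones, but they read the same RNA and are not replicates of each other.

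**Figure D1:**
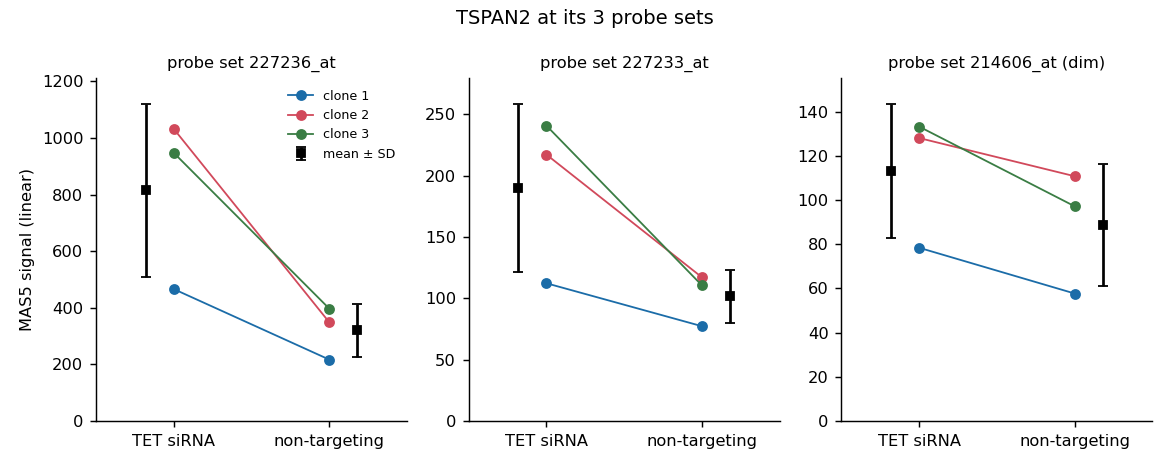
MAS5 signal (linear axis from 0) of the 3 TSPAN2 probe sets, each panel with the 3 clones under TET siRNA on the left and non-targeting siRNA on the right, lines joining the arrays of a clone, and squares for the mean with its SD (n = 3). At the brightest probe set all TET siRNA arrays (465.9 to 1032) lie above all control arrays (216.5 to 396.4), and clone 1 is lowest in both groups in every panel.

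The TSPAN2 call rested on the clone being in the model. Without the block the adjusted p in limma was 0.454 at the same difference of 1.31, and clone 1 lay far below clones 2 and 3 in both groups. Leaving out both arrays of clone 1, TSPAN2 passed with the block (log2 1.41, adjusted p 0.0112) and without it (0.0119). Without the block it did not pass when clone 2 (0.999) or clone 3 (1.00) was left out instead. With its probe sets averaged it did not pass either (log2 0.84, adjusted p 0.258). With plain empirical Bayes in place of the trended, robust one the adjusted p was 0.320, and 0 of all 27306 probe sets passed.

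The promoters of the 3 genes of smallest p, TSPAN2, TSPAN6 and CD9, are shown because TET enzymes act on methylated cytosines next to a guanine. Each sequence is from RefSeq on build GRCh38.p14, spans 250 bases before to 50 after a gene start, and is written from 5′ to 3′ on the gene's strand with each CG in capitals. Where the table held several starts, the one with most CG was taken. The TSPAN2 promoter (chr1:115089454-115089753, minus strand) holds 38 CG, a number that 9.91% of all 35116 promoters of the same length reach or pass. The TSPAN6 promoter (chrX:100636757-100637056, minus strand, 1 of 2 starts) holds 12, reached by 53.1%, and that of CD9 (chr12:6200150-6200449, plus strand, 1 of 4 starts) holds 32, reached by 18.9%. The starts of TSPAN6 and CD9 were picked for most CG and the 35116 promoters were not. These percentages therefore make TSPAN6 and CD9 look richer in CG than a like comparison would. CG reads the same on both strands. The arrays measure RNA, and the methylation of these sites was not analysed here.
TSPAN2: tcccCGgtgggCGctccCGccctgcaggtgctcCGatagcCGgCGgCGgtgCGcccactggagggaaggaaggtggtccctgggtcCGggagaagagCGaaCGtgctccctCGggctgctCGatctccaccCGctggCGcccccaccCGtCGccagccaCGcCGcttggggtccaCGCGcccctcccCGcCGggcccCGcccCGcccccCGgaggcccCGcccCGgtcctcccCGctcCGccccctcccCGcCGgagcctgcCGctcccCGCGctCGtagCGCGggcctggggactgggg
TSPAN6: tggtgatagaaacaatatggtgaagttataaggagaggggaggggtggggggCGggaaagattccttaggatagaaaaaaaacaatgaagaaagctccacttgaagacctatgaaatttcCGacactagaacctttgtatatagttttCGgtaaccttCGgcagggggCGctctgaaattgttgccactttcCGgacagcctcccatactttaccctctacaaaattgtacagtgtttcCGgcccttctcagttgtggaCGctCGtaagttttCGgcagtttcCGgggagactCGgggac
CD9: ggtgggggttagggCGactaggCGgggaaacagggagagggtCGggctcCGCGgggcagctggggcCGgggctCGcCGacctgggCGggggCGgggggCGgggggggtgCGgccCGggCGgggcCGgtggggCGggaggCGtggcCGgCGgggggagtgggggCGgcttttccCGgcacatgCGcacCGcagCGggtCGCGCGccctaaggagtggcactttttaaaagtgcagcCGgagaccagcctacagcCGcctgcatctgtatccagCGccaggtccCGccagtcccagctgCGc

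Across the family, 1 of 35 tested probe sets passed (2.86%), against 1.03% of all tested probe sets (282 of 27306), and 1 of 22 genes (4.55%), against 1.32% of all tested genes. Higher calls made up 0.385% of all tested probe sets and lower calls 0.648%. Without the block 0 of the 35 passed in limma, against 0.0146% of all, with 7 of the 35 at an unadjusted p under 0.05 (6.61% of all). At an adjusted p under 0.1 with the block, 3 of the 35 passed and 2.37% of all. With the block 7 of the 35 had an unadjusted p under 0.05 (20.0%), against 14.4% of all. Taken by gene, 15 of 22 lay higher and 7 lower, with a median log2 difference of 0.11 beside 0.01 for all 12318 tested genes, of which 51.9% lay higher. In 9 of the 22 genes (40.9%) all 3 clones had the same sign, against 37.9% of all tested genes. In 5 of the 22 the groups did not overlap (22.7%), against 13.2% of all genes: TSPAN2, TSPAN6 and TSPAN7 lay higher and CD9 and CD63 lower under TET siRNA. Over probe sets 5 of 35 did not overlap (14.3%), against 12.7% of all (7.21% higher and 5.5% lower), and 13 of 35 had 1 sign in all clones (37.1%), against 36.2%. With clone 1, 2 or 3 left out, 1, 3 and 1 of the 35 passed in that order, beside 0.396%, 2.5% and 0.231% of all. Without the block and without clone 1 it was 1 of the 35, beside 0.443% of all.

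**Figure D2:**
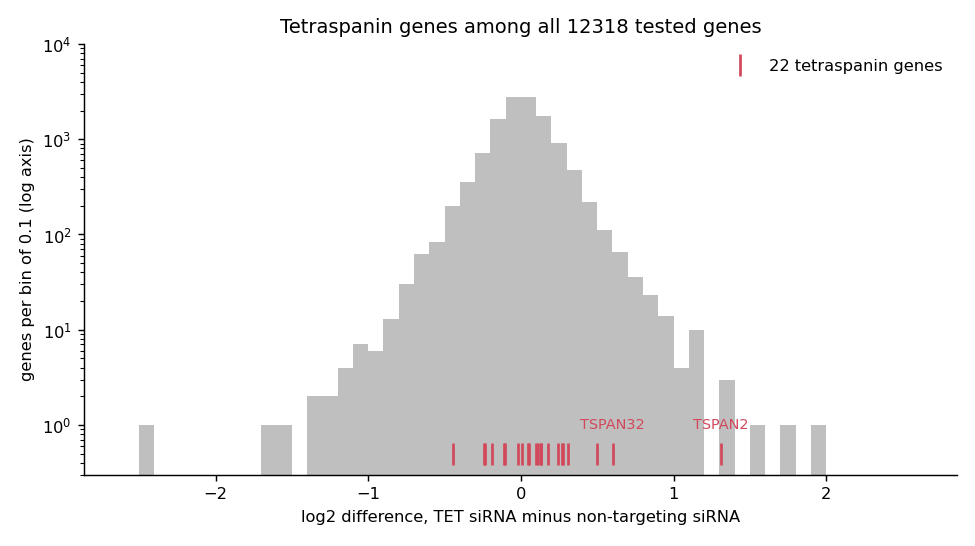
Histogram of log2 differences, TET siRNA minus non-targeting siRNA, of all 12318 tested genes at their brightest probe set (grey, log axis of genes per bin), with the 22 tested tetraspanin genes as red ticks. TSPAN2 at 1.31 stands in the upper tail, and the other members lie between -0.44 and 0.60.

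Among the numbered tetraspanins outside the TspanC8 group, 11 of 12 tested genes lay higher and 1 lower under TET siRNA. Of all tested genes 51.9% lay higher. TSPAN3 (0.010), TSPAN4 (0.045) and TSPAN13 (0.056) were higher by little, and they, TSPAN9 and TSPAN11 changed sign with a clone left out. The count of directions was not tested. The median log2 difference was 0.19, and TSPAN2 alone passed. TSPAN6, a tetraspanin of endosomes encoded on the X chromosome, was next. Its brightest probe set had signals of 8127, 7285 and 7525 under TET siRNA, against 6884, 5775 and 5920 under non-targeting siRNA, and its groups did not overlap. The difference of 0.31 (SE 0.07) just missed the threshold (limma adjusted p = 0.0566, and 0.616 without the block). A second TSPAN6 probe set had 6319, 5408 and 5997 under TET siRNA and 5809, 4018 and 4485 under non-targeting siRNA, with a difference of 0.32 (SE 0.08, adjusted p 0.0866). All 3 clones were higher at both, by 0.24, 0.34 and 0.35 at the brightest. The first of them passed without clone 2 (0.0410), with quantile normalization (0.0482) or with a stricter brightness filter (0.0400). It did not pass without clone 1 (0.139), without clone 3 (0.445), with no brightness filter (0.201), with plain empirical Bayes (0.350) or with its probe sets averaged (0.201).

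TSPAN7, whose loss in humans is a cause of X-linked intellectual disability, had signals of 1662, 1475 and 1786 under TET siRNA, against 1304, 1397 and 1361 under non-targeting siRNA. The groups did not overlap, and clone 2 showed the least difference (0.08, beside 0.35 and 0.39 in clones 1 and 3). The mean difference was 0.27 (SE 0.10, limma adjusted p 0.240). TSPAN12, which joins the norrin receptor FZD4 in blood vessels of the retina, had 8093, 7140 and 7948 under TET siRNA, against 5877, 7456 and 6314 under non-targeting siRNA. Clones 1 and 3 were higher and clone 2 was slightly lower, for a difference of 0.24 (SE 0.10, adjusted p 0.278). Without clone 2 it was 0.40 and passed (adjusted p 0.00688), while it was 0.14 without clone 1 (0.631) and 0.20 without clone 3 (0.760). The other TSPAN12 probe sets differed by 0.09 and 0.04.

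**Figure D3:**
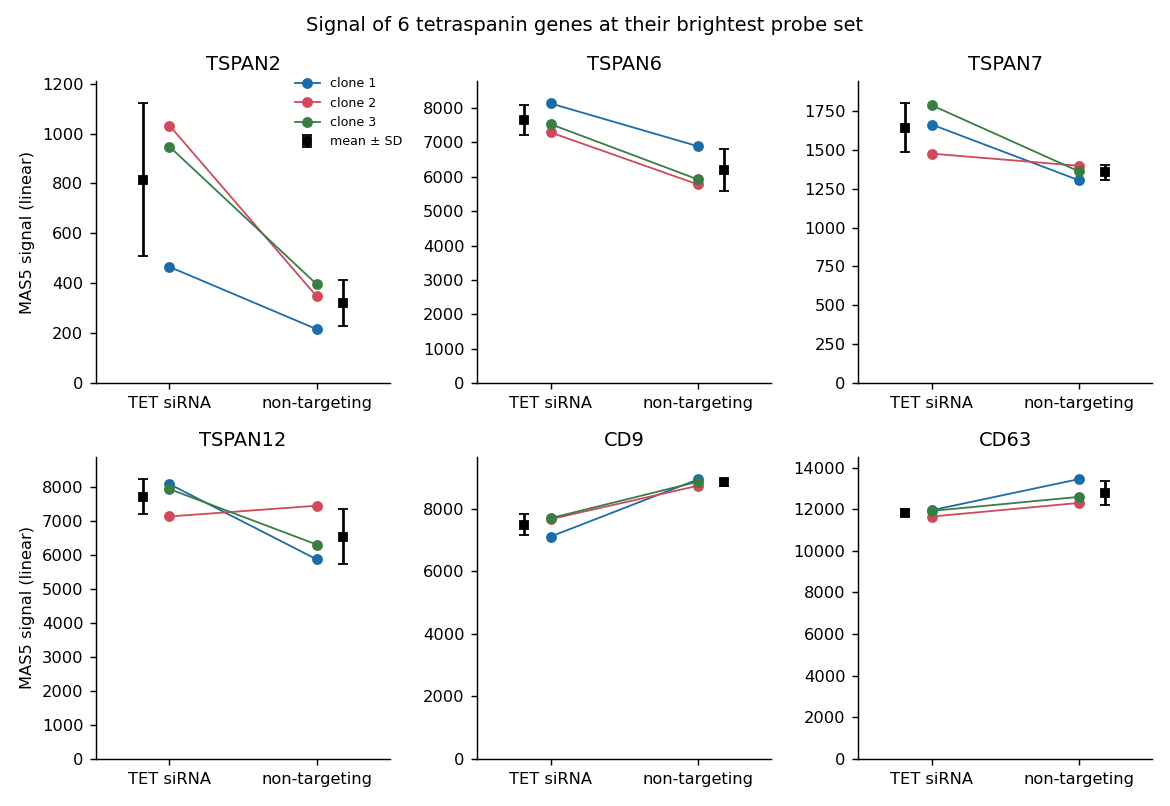
MAS5 signal (linear axes from 0) of TSPAN2, TSPAN6, TSPAN7, TSPAN12, CD9 and CD63 at their brightest probe sets, with TET siRNA on the left and non-targeting siRNA on the right of each panel, 1 line per clone and squares for the mean with its SD (n = 3). All panels but that of TSPAN12 show groups that do not overlap, with CD9 and CD63 lower under TET siRNA.

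TSPAN31, whose gene overlaps that of the cell cycle kinase CDK4, had signals of 4352, 3454 and 3880 under TET siRNA, against 4176, 3139 and 3371 under non-targeting siRNA. Clone 1 was highest in both groups, and the difference was 0.13 (SE 0.07, adjusted p 0.448), with 0.14 at the other probe set. TSPAN32, best known in blood cells, had 162.3, 168.4 and 209.6 under TET siRNA, against 161.0, 57.44 and 176.7 under non-targeting siRNA. The difference of 0.60 (SE 0.34, adjusted p 0.457) came mainly from the low control array of clone 2, since the clones gave 0.01, 1.55 and 0.25. TSPAN3 had 24549, 25807 and 25631 under TET siRNA, against 25379, 25238 and 24825 under non-targeting siRNA, a difference of 0.01 with a 95% interval of -0.14 to 0.16. Its next probe sets differed by 0.07 and -0.20, so they had no common sign.

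TSPAN13 had 21354, 20370 and 22623 under TET siRNA, against 24037, 19057 and 19104 under non-targeting siRNA. The arrays of clones 1, 2 and 3 did not order by treatment, and the difference was 0.06 (95% interval -0.13 to 0.24). TSPAN18, studied in blood vessels, had 131.1, 212.9 and 194.3 under TET siRNA, against 171.3, 206.4 and 249.6 under non-targeting siRNA. That was a difference of -0.23 (SE 0.24), while its other probe set gave 0.05. TSPAN4, a protein of migrasomes, differed by 0.04 at the brightest and 0.45 at a second probe set, and TSPAN9, a platelet tetraspanin, by 0.14 and 0.51. TSPAN11 differed by 0.50 (SE 0.37), with 1.57 in clone 1 and -0.25 in clone 3. None of these genes passed (limma adjusted p 0.542 to 0.959 over their tested probe sets).

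Of the CD-named tetraspanins, 5 of 7 were bright enough to be tested, 2 lay higher, 3 lower, and 0 passed in limma, with CD9 at an unadjusted p under 0.05 (0.00406). CD9, a partner of integrins and immunoglobulin-type proteins that is also needed on the egg for fusion with sperm, had signals of 7103, 7660 and 7692 under TET siRNA, against 8928, 8726 and 8856 under non-targeting siRNA. Every TET siRNA array lay below every control array, and the means were 7485 ± 331 under TET siRNA and 8837 ± 103 under non-targeting siRNA (SD, n = 3 each). The difference was -0.24 (SE 0.07), or 0.847-fold (95% interval 0.765 to 0.937), with clones at -0.33, -0.19 and -0.20. It did not pass over all probe sets (adjusted p 0.126, and 0.605 without the block). CD63, a protein of late endosomes and of the vesicles they release, had 11951, 11648 and 11918 under TET siRNA, against 13446, 12300 and 12593 under non-targeting siRNA. Its groups did not overlap either, at a difference of only -0.11 (SE 0.07, adjusted p 0.497).

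CD81, a receptor of hepatitis C virus, had 8926, 7486 and 7063 under TET siRNA, against 7849, 6597 and 7417 under non-targeting siRNA. The groups overlapped and clone 3 went the other way, at a difference of 0.10 (95% interval -0.06 to 0.26). CD151, which binds integrins that recognise laminin, differed by 0.18 (SE 0.17), with clone 1 at -0.27 and clone 2 at 0.63. CD53, a leukocyte tetraspanin, had signals of 82.51 to 188.2 under TET siRNA and 129.8 to 227.1 under non-targeting siRNA, little above the filter. Its clones differed by -0.27, -1.30 and 0.24, for a mean of -0.44 (SE 0.32) that was -0.013 without clone 2. CD82 was dim, and so was CD37, a B cell tetraspanin with 34.96 to 63.32 under TET siRNA and 15.04 to 74.28 under non-targeting siRNA at its brightest probe set.

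In the TspanC8 group 5 of 6 genes were tested, 2 lay higher, 3 lower and 0 passed in limma, with 0 at an unadjusted p under 0.05. TSPAN5, which with TSPAN14 directs ADAM10 towards Notch receptors, had signals of 1204, 1176 and 1438 under TET siRNA, against 1207, 1272 and 1049 under non-targeting siRNA. Clone 3 alone was clearly higher, and the 3 TSPAN5 probe sets differed by 0.11, -0.11 and -0.10, so they did not share a sign. TSPAN14 had 766.0, 826.2 and 896.7 under TET siRNA, against 945.6, 891.9 and 990.9 under non-targeting siRNA. It was lower in 3 of 3 clones at both probe sets, by 0.19 (SE 0.11) and 0.30 (SE 0.15) on the log2 scale, with adjusted p-values of 0.495 and 0.392. TSPAN17 had 696.0, 797.7 and 741.9 under TET siRNA, against 796.9, 885.3 and 719.6 under non-targeting siRNA, a difference of -0.10 with a 95% interval of -0.36 to 0.16.

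TSPAN15, which sends ADAM10 to N-cadherin, had 647.7, 493.9 and 438.8 under TET siRNA, against 465.7, 435.7 and 394.9 under non-targeting siRNA. It was higher in 3 of 3 clones, but the clones overlapped between the groups and the difference of 0.27 (SE 0.15) did not pass (adjusted p 0.449). TSPAN33, known from red cell formation in mice, differed by -0.02 (95% interval -0.30 to 0.26). TSPAN10 was dim.

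**Figure D4:**
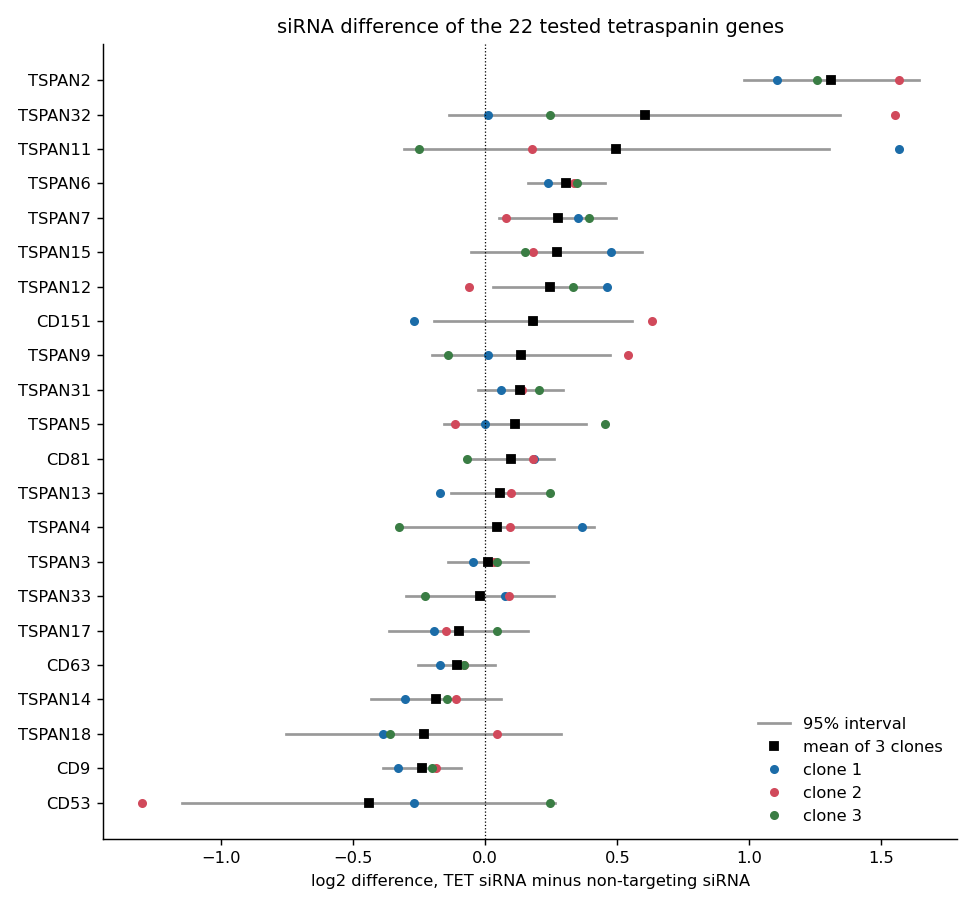
Log2 difference, TET siRNA minus non-targeting siRNA, of the 22 tested tetraspanin genes at their brightest probe set, with 1 coloured point per clone, a square for the mean and a bar for the 95% interval of the fit with the clone as a block. TSPAN2 has its 3 clones at 1.11, 1.57 and 1.26, and 13 genes have clones on both sides of 0.

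The clones also differed from each other. Averaged over both treatments on the log2 scale, TSPAN2 had a signal of 317.6 in clone 1, 599.4 in clone 2 and 612.8 in clone 3, a range of 0.95 that was smaller than its treatment difference of 1.31. TSPAN11 had 89.11, 148.3 and 186.1 in the same order and TSPAN4 had 352.4, 547.2 and 463.3, both lowest in clone 1 as well. CD53 had 206.7, 129.5 and 141.3 and CD151 had 645.1, 534.2 and 537.5, both highest in clone 1. In 13 of the 22 genes (59.1%) the range between clones was larger than the difference between treatments, against 77.4% of all tested genes. A range over 3 means tends to exceed a difference of 2, so the count shows no clone effect by itself. The median range was 0.20, beside 0.26 for all tested genes, and the median size of the treatment difference was 0.18, beside 0.11. Each clone mean rests on 2 arrays, so these are given with no test, and whether the treatment acted differently in single clones could not be tested with 1 array per clone and treatment.

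**Figure D5:**
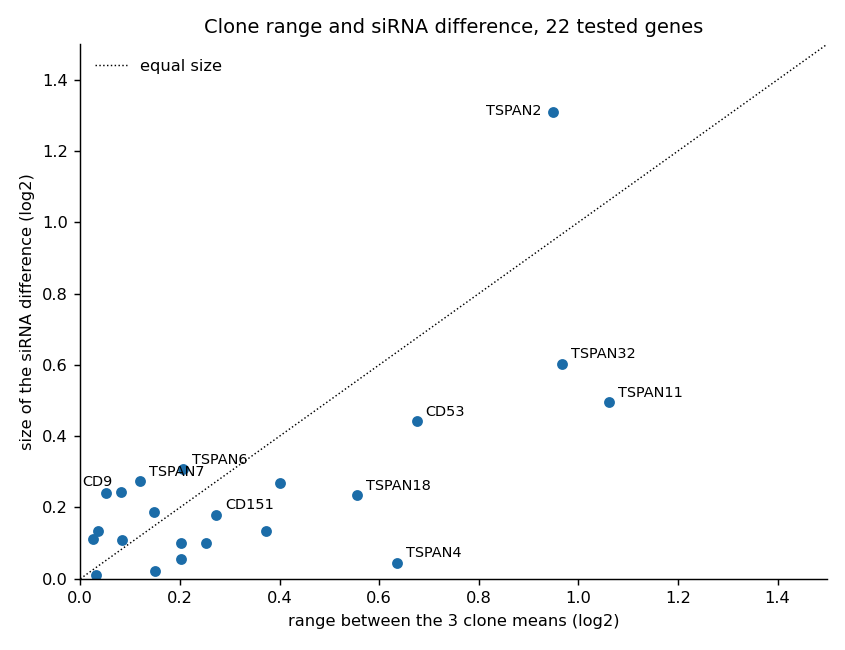
Size of the log2 difference between treatments (vertical) against the range between the 3 clone means in log2 units (horizontal) for the 22 tested tetraspanin genes at their brightest probe set; the dotted line marks equal size. TSPAN2 has both a wide clone range (0.95) and the largest treatment difference (1.31), while TSPAN11 and TSPAN32 lie below the line.

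The dim members were 25 probe sets, with signals of 1.845 to 209.9 on single arrays, and 10 genes had dim probe sets alone: CD37, CD82, PRPH2, ROM1, TSPAN1, TSPAN8, TSPAN10, TSPAN16, UPK1A and UPK1B. PRPH2 and ROM1 shape the disc rims of photoreceptors, and UPK1A and UPK1B form the plaques of the bladder surface. UPK1A had signals of 34.60 to 162.3 under TET siRNA and 20.83 to 209.9 under non-targeting siRNA. PRPH2 had 19.23 to 105.6 under TET siRNA and 20.18 to 87.14 under non-targeting siRNA, and ROM1 had 56.97 to 124.1 under TET siRNA and 54.90 to 75.25 under non-targeting siRNA. TSPAN1 had 10.12 to 87.58 under TET siRNA and 18.36 to 57.07 under non-targeting siRNA, and TSPAN8 had 32.26 to 68.14 under TET siRNA and 13.09 to 79.27 under non-targeting siRNA. The groups overlapped for these 5 genes.

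In 5 of the 25 dim probe sets the groups did not overlap (20.0%), against 10.1% of all dim probe sets. CD82, known as a suppressor of metastasis, had 140.0, 133.5 and 111.3 at its brighter probe set under TET siRNA, against 45.16, 61.04 and 71.00 under non-targeting siRNA. The probe set is of a type that can cross-hybridise, and at the other CD82 probe set the control array was the higher one in each clone, with overlapping groups (10.49 to 21.28 under TET siRNA and 15.35 to 36.34 under non-targeting siRNA). Of the tested family probe sets 11 also have names that mark possible cross-hybridisation. The brightest of TSPAN6 and of TSPAN32 are among them, and the second TSPAN6 probe set is not. TSPAN16 had 97.47, 165.6 and 111.0 at its brightest probe set under TET siRNA, against 29.68, 25.83 and 47.74 under non-targeting siRNA. At a second it had 65.46, 5.027 and 8.288 under TET siRNA, against 94.59, 42.74 and 111.8 under non-targeting siRNA. These probe sets of CD82 and of TSPAN16 thus went opposite ways within a gene. The other 3 lay lower still: a TSPAN10 probe set had 13.98 to 52.19 under TET siRNA and 1.845 to 11.89 under non-targeting siRNA, the dimmest of TSPAN3 had 20.42 to 42.22 under TET siRNA and 2.165 to 17.85 under non-targeting siRNA, and UPK1B had 13.83 to 33.75 under TET siRNA and 40.66 to 65.10 under non-targeting siRNA. All 5 lie below the filter at a geometric mean of 117, so no fold change is given for them.

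Some members are neighbours in RefSeq: TSPAN32 lies next to CD81, and CD82 next to TSPAN18, among protein-coding genes of chromosome 11. Neither pair held a call, with TSPAN32 at 0.60 beside CD81 at 0.10, and TSPAN18 at -0.23 beside the dim CD82.

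Among the lists of partner genes, that of the palmitoyltransferases held the calls. Some enzymes of this family attach the fatty acid that tetraspanins need to assemble, but the list took every numbered ZDHHC gene. Whether each of them acts on tetraspanins was not tested. Of 21 tested ZDHHC genes 1 rose, 1 fell and 19 did not pass, with a median difference of 0.02 (1.32% of all tested genes passed). ZDHHC2, which palmitoylates CD9 and CD151, had signals of 7400, 7890 and 8089 under TET siRNA, against 10664, 11261 and 10484 under non-targeting siRNA. Every TET siRNA array lay below every control array, and the level fell by 0.47 on the log2 scale (SE 0.07, limma adjusted p 0.00753). The other bright ZDHHC2 probe sets differed by -0.09 (adjusted p 0.818) and -0.37 (0.0833), and the call was lost without the block (0.117), without clone 1 (0.0555) and without clone 3 (0.0616). ZDHHC6, an enzyme of the endoplasmic reticulum, had 4989, 4289 and 4480 under TET siRNA, against 4231, 3212 and 3080 under non-targeting siRNA, and rose by 0.40 (SE 0.08, adjusted p 0.0413). It did not pass without the block (0.643), without clone 1 (0.0705) or without clone 3 (0.395).

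The other partner lists held 0 calls in limma. The next list took integrins and immunoglobulin-type proteins along with other partners, and is called the integrin list here. Of its tested genes, CR2, IFITM1, CLDN1, EPCAM, CD44, HBEGF, PI4K2A and PRKCA belong to neither class. Of the 17 tested, 6 lay higher and 11 lower, with a median of -0.03. At an unadjusted p under 0.05 there were 8 of 17, against 16.1% of all tested genes, and 3 of 17 without the block, against 6.96%. The 8 included IFITM1, CLDN1 and CD44. ITGAV, an integrin subunit that binds matrix proteins, had signals of 4488, 3998 and 3836 under TET siRNA, against 6132, 4535 and 5267 under non-targeting siRNA. The groups did not overlap, and the difference was -0.36 (SE 0.08, adjusted p 0.0547). ITGA4, which forms a receptor for fibronectin and VCAM1, had 2078, 1997 and 2524 under TET siRNA, against 1893, 1437 and 1664 under non-targeting siRNA, a difference of 0.40 (SE 0.10, adjusted p 0.0980). In the list of ADAM10, its substrates and the protease ADAM17, 10 genes were tested. Of these 4, ADAM17 among them, lay higher and 6 lower, with a median of -0.04. At an unadjusted p under 0.05 there were 2 of 10 (1 without the block), against the same 16.1% and 6.96%, and 1 of these, CD44, is also in the integrin list. ADAM10 itself differed by -0.03 (SE 0.07), CD44, a hyaluronan receptor, by -0.50 (SE 0.16, adjusted p 0.176) and NOTCH2 by 0.19 (SE 0.07, 0.206).

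Of 21 tested genes of vesicles and late endosomes, 12 lay higher and 9 lower, with a median of 0.04. At an unadjusted p under 0.05 there were 3 of 21, near the 16.1% of all tested genes, and 1 without the block. SDCBP, the syntenin that loads vesicles, differed by 0.17 and RAB27A, a GTPase of vesicle release, by -0.26 (adjusted p 0.261 and 0.262). The norrin receptor genes FZD4, LRP5 and LRP6 all lay higher (median 0.17), with 1 of 3 at an unadjusted p under 0.05 with the block and 0 without it, and with FZD4 at 0.24 and LRP6 at 0.16 (adjusted p 0.469 and 0.345). The uroplakin partners UPK2, UPK3A and UPK3B were all dim.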

How the data were processed

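The authors deposited linear intensities, 1 signal per probe set and array, made with MAS5 per the submitters' processing notes (no version was at hand). After trimming 2% at either end every array had a mean of 1000.13, so no further scaling was done. MAS5 sets mismatch against perfect-match probes on each array by itself, which leaves dim probe sets noisy.

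After 62 controls were set aside, 54613 probe sets remained, 41091 of them with 1 gene in the platform annotation, 1801 with several and 11721 with none. Probe sets with several genes were not named. All 32 family genes were found by Entrez ID in RefSeq (GRCh38.p14). Signals were taken to log2, and probe sets above the 50th percentile of mean log2 signal (geometric mean 117) were tested: 27306, for 12318 genes. The comparison was limma 3.58.1 (R 4.3.3) with the clone as a block and a trended, robust empirical Bayes step, two-sided, with Benjamini-Hochberg adjustment over all tested probe sets and a threshold of 0.05. SE and 95% intervals come from that fit, and errors after ± are SDs over 3 arrays. The steps were also run on simulated arrays, with independent noise drawn from the same fit. Such arrays cannot test whether the block or the trended, robust step was the right choice. Plots used matplotlib 3.10.9.

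The labels give the replicate number as the clone. Because each clone gave 1 array per treatment, the arrays were treated as paired. After subtracting group means, the arrays of a clone correlated at 0.493, 0.234 and 0.236 in clones 1, 2 and 3, all above the limit of 0.1. Clone 2 under TET siRNA and clone 3 under non-targeting siRNA reached 0.219. That pair of different clones is above the limit too, so the limit does not tell it from a pair of 1 clone. Any pair of arrays correlated at 0.972 to 0.986 in log2 signal, and the first principal component held 39.7% of the variance.

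The family, the partner lists and the tests were chosen with earlier results of these data known. Values on every array are given for family genes past the threshold with or without the block, the 8 of smallest p, the 6 brightest, those whose probe sets differ in sign, and the 3 brightest TspanC8 genes. In partner lists the passing genes are named, or else the 2 of smallest p, and ADAM10 was named in addition after its value was seen. Alternatives were no block, other brightness filters, a pseudocount of 36.1, quantile normalization, plain empirical Bayes, each clone left out, other gene levels and a threshold of 0.1.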

Additional observations from a re-analysis of the deposited data

How the results depend on the processing

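The count of all probe sets past the threshold, 282, was 4 with no replicate block, 70 with no brightness filter, 0 with plain empirical Bayes in limma (3355 at an unadjusted p under 0.05) and 63 to 684 with a clone left out. With no replicate block it was 121 without clone 1 and 0 without clone 2 or 3 (946 and 550 unadjusted), alternatives chosen after seeing the data. The family count of 1 probe set and of 1 gene was 0 with no replicate block (7 probe sets and 5 genes unadjusted) and with plain empirical Bayes (5 and 3), 2 with quantile normalization, 3 without clone 2, 1 to 3 with any clone left out, 3 probe sets at an adjusted p under 0.1, and 0 genes with probe sets averaged by gene (4 unadjusted). With no replicate block 0 probe sets passed without clone 2 or 3 (4 and 1 unadjusted). With the upper 30% of probe sets the 1 that passed was TSPAN6, since TSPAN2 lies below that filter. TSPAN2 was higher in all 12 of its alternatives (0.84 to 1.41 on the log2 scale), with an adjusted p of 0.0019 to 1.00, and passed in 7. The median over tested genes, 0.11, was 0.028 (without clone 2) to 0.140 with a clone left out. TET2 (-1.10) and TET3 (-1.22) lost their calls with no replicate block. The palmitoyltransferase count of 2 was 0 with no replicate block (2 unadjusted) and with plain empirical Bayes (4 unadjusted), 1 with no brightness filter or quantile normalization, and 0 to 2 with a clone left out. The count of 0 in the integrin list was 1 (ITGAV) with the upper 30% of probe sets, and 0 to 1 with a clone left out.

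Of 219 gene values under an alternative, 198 kept their direction and side of the threshold. In 9 genes, none past the threshold, 12 values changed sign. With a clone left out the lowest and highest values were -0.045 (without clone 2) and 0.405 for CD151, -0.039 (without clone 1) and 0.871 for TSPAN11, -0.037 (without clone 3) and 0.170 for TSPAN13, -0.008 (without clone 3, and -0.001 without clone 2) and 0.039 for TSPAN3, -0.076 and 0.082 (without clone 3) for TSPAN33, -0.116 (without clone 1) and 0.230 for TSPAN4, -0.059 (without clone 3) and 0.226 for TSPAN5, and -0.067 (without clone 2) and 0.275 for TSPAN9. With quantile normalization TSPAN4 was -0.004, and with probe sets averaged by gene CD53 was 0.071 and TSPAN5 -0.032. The causes were not tested.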

Other observations

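Taking for each gene the start with most CG, the 15 tested genes found in the RefSeq promoter table had a median of 30 CG in 300 bases, the 9 genes with dim probe sets alone had 5, and all genes of the table had 16. TSPAN14 (53), TSPAN4 (52) and TSPAN5 (50) had the most, while TSPAN16 (2), TSPAN8 (3), UPK1A (4) and PRPH2 (4) had the fewest together with CD53 (4), a tested gene whose signal lay little above the filter. The ranges overlapped: of the dim genes CD82 had 33, ROM1 12 and UPK1B 11, while the tested genes TSPAN6, TSPAN12 and TSPAN31 had 12, 13 and 13. Taking the richest start favours genes with several starts, such as the tested CD63 (8) and TSPAN4 (5). Among the dim genes TSPAN8 had the most (2). Medians over all tested and all dim genes of the array are not given, so the contrast is not shown to be particular to the family. These are descriptions of the sequences beside the signals, with no test. CD37, CD81, CD151, TSPAN3, TSPAN7, TSPAN9, TSPAN18 and TSPAN32 had no entry.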
